A study of Macaca mulatta with 64 samples.

Results

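The genes for the proteins of the cytosolic and the mitochondrial ribosome were examined with CAGE-seq, which sequences the 5′ ends of capped RNAs, in the brain of rhesus macaques. Members were taken by symbol alone. The cytosolic set held genes whose Ensembl macaque symbol begins with RPL or RPS followed by a digit, A, P or X, without the RPS6K kinases, and the mitochondrial set held genes whose symbol begins with MRPL or MRPS. The rule gave 102 of the 13269 genes in the table, 60 cytosolic and 42 mitochondrial, while 83 and 70 genes of the macaque name table used here fit the same 2 symbol rules. The cytosolic set had 35 genes of the large and 25 of the small subunit, and the mitochondrial set had 30 and 12. RPS24 stood for 2 gene IDs, and RPL3L, RPL36AL and RPS27L, which are close relatives of RPL3, RPL36A and RPS27, stayed in the set because their symbols fit.

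The cytosolic ribosome translates the mRNAs of the nuclear genome and the mitochondrial ribosome translates the few mRNAs of the mitochondrial genome, but the proteins of both are encoded in the nucleus and made in the cytosol. Cytosolic ribosomal protein mRNAs belong to the TOP mRNAs, which start with a C followed by a run of pyrimidines at the cap and whose translation follows growth signals through mTOR. Mitochondrial ribosomal protein mRNAs are not known for this start, and several of their proteins have no counterpart in bacteria. Neurons rely on both machines, since local protein synthesis in dendrites and the mitochondrial supply of the respiratory chain serve synapses.

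The study sampled 8 regions of 16 macaques, namely the cerebellar cortex (CB), CA1 and dentate gyrus (DG) of the hippocampus, and the prefrontal (PFC), posterior cingulate (PCC), temporal (TC), parietal (PC) and occipital (OC) cortex. Males and females of 1, 4, 10 and 20 yr were used, none of them with a stated treatment or altered genotype, and according to the methods given for RNA-seq, animals were pooled as pairs of equal age and sex. There were 64 libraries, 1 for each region, age and sex, so each region had 8 libraries, each from another combination of age and sex, called an animal group here. All 8 regions came from the same animals, and no combination had a second library. Tests of age and sex therefore used the spread between animal groups. Tests of regions used the spread of libraries left after mean differences between regions and between animal groups were removed. That remaining spread also holds any age and sex differences particular to a region.

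Each tag marks the 5′ end of an RNA, so levels of genes can be compared without a correction for length. Neighbouring 5′ ends form a tag cluster. Clusters were formed library by library, so close positions from different libraries can be listed as separate tag clusters. The deposited values are TPM, the tags of each tag cluster scaled to a common tag total per library, and the level of a gene is the sum over its tag clusters. A gene with no tag cluster in a library is called not listed, since values begin at 1 TPM, which stood for 2 to 7 tags, and since genes that all cells use were often not listed. Libraries held an estimated 1510000 to 6090000 tags and listed 545 to 8143 genes. CA1 libraries listed the most genes, 3805 to 8143 against 1238 to 3898 in DG, and 6 libraries listed fewer than 1000 genes (3 of PCC and 1 each of TC, PC and CB).

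The region labels were checked with marker genes. Cerebellar markers (7 of 9 in the table) summed to a median of 2514 TPM in CB libraries (1568 to 3107) and to no more than 771 TPM in any library of the other regions, while forebrain markers had a median of 0 TPM in CB (0 to 31.8). The dentate granule markers had a median of 115 TPM in DG but were not listed in 2 of its 8 libraries. They reached 1035 TPM in a PCC library. Both markers of CA1 were weak, with a summed median of 4.38 TPM and a listing in 5 of 8 CA1 libraries. Their sum had a median of 6.25 TPM in TC and reached 351 TPM in a CB library, against at most 69.1 TPM in CA1. The labels of CA1 and DG were therefore not settled by these markers. All tissue was bulk tissue, so fewer cells of a type and less RNA per cell cannot be told apart.

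The members were listed far more broadly than genes at large. RPL4, a protein that lines the exit tunnel of the large cytosolic subunit, was listed in all 64 libraries, as were 54 of the 13269 genes. In at least 32 libraries, 30 cytosolic members (50%) and 20 mitochondrial members (47.6%) were listed, against 1847 of all genes (13.9%). The median of the mean TPM over 64 libraries was 26.4 for cytosolic members, 38.3 for mitochondrial members and 3.09 for all genes. Even so, 30 cytosolic and 22 mitochondrial members had a median of 0 over the libraries. RPL3L, a muscle relative of RPL3, MRPL15 and MRPL1 were each listed in a single library. RPL7, RPL15, RPS3A and both RPS24 entries, although part of every cytosolic ribosome, were listed in 3 to 9 libraries. The authors kept uniquely mapped reads only, and ribosomal protein genes have many near-identical copies in mammalian genomes, so the levels of single members and their order are uncertain.

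**Figure D1:**
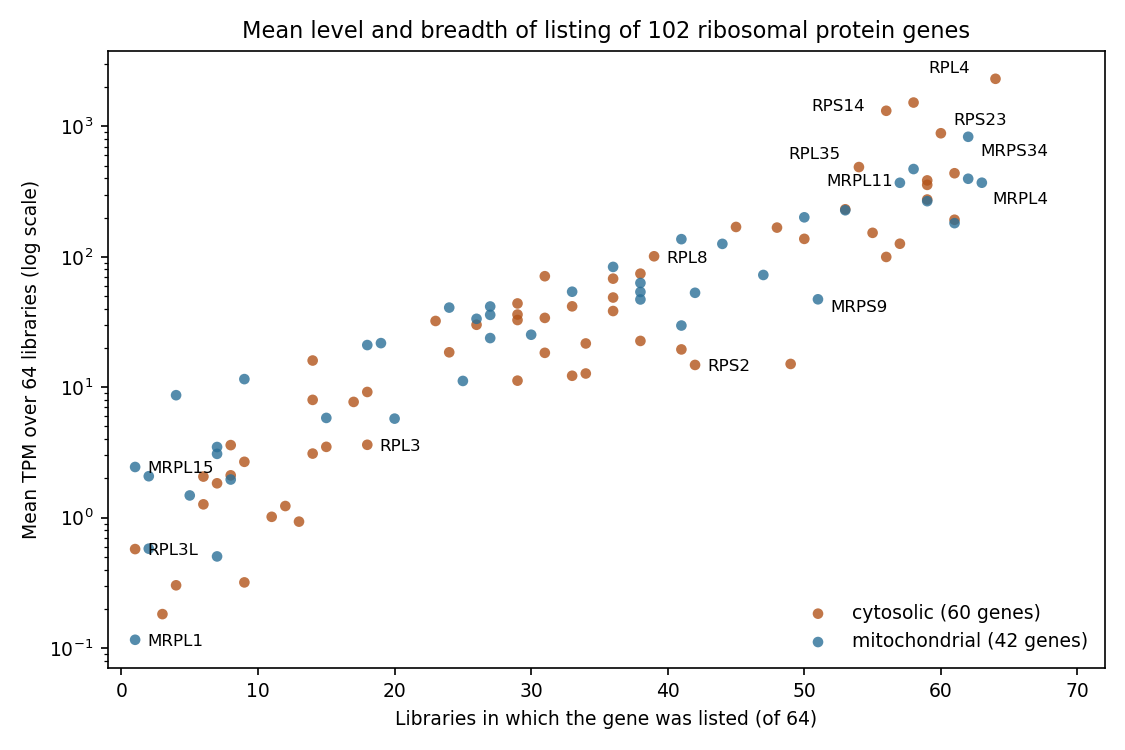
Mean TPM over 64 libraries (log scale) against the number of libraries in which each of 102 ribosomal protein genes was listed, with the 60 cytosolic genes in orange and the 42 mitochondrial genes in blue. Genes of both sets lie along 1 band that reaches RPL4 at 2315 TPM and 64 libraries at the upper end, while RPS2 (42 libraries) lies below it with a mean of 14.8 TPM.

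A few genes carried most of each set. The 5 genes with the highest mean level held 64.3% of the cytosolic TPM (among them RPL4, RPS14, RPS23 and RPL35) and 55.6% of the mitochondrial TPM (MRPS34, MRPL11, MRPS21, MRPL4 and MRPL46). RPL4 alone made up 22.8% of its set, and MRPS34, a small-subunit protein without a bacterial counterpart, made up 19.0% of its set. Means of at least 100 TPM were found for 17 cytosolic and 11 mitochondrial members (28.3% and 26.2%), and means below 10 TPM for 19 and 12.

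The leading gene changed from library to library. RPL4 was the highest cytosolic member in 30 of 64 libraries and RPS14, a protein of the small-subunit platform, in 11, and 8 different cytosolic genes led in at least 1 library. Among mitochondrial members 11 genes led in at least 1 library, MRPS34 in 24 of them, MRPL46 in 10 and MRPS21 in 9. Several strong genes were strong in few libraries only. RPS14 had a mean of 1316 TPM but a median of 130.5 TPM and a highest value of 7371 TPM (DG, 1-yr-old females). RPL35 had a mean of 487 TPM and a median of 41.6 TPM, with 5734 TPM in the PCC library of 20-yr-old males.

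The next cytosolic genes by mean were RPLP2 and RPLP1, the acidic stalk proteins that bring elongation factors to the ribosome, with medians over all libraries of 150.1 and 284.7 TPM, RPS21 with 349.7 TPM, RPL27 with 214.7 TPM and RPL13 with 60.8 TPM. RPL13 had the widest spread of these 5, with 5582 TPM in the PCC library of 10-yr-old females. In the mitochondrial set MRPL11, the counterpart of a bacterial stalk-base protein, had a median of 368 TPM, MRPS21 369.8 TPM, MRPL4, the counterpart of RPL4, 244.5 TPM and MRPL46 309.2 TPM. They were followed by MRPL17 with a median of 248.2 TPM, MRPL34 with 156.1 TPM, MRPS18C with 160.1 TPM, MRPS15 with 111.5 TPM and MRPL24 with 27.5 TPM. Each of these 14 genes was listed in 41 to 63 libraries, so none had a tag cluster everywhere.

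Most tags of both sets began close to the annotated start of the gene. Within 500 nt of the start lay 63.6% of the cytosolic TPM (82.5% without RPL4) and 87.5% of the mitochondrial TPM, against 53.2% for all other genes. The sets differed in which side of the start was used. Upstream of the start lay 7.24% of the cytosolic TPM and 32.2% of the mitochondrial TPM, against 17.8% for all other genes, and in the first 100 nt inside the gene lay 53.2% (69.0% without RPL4) and 44.4%, against 20.3%. These shares describe sums over all libraries, in which genes with high levels weigh most, and were not tested. MRPS21, for example, had 65.9% of its TPM at 447 nt upstream, and the mitochondrial shares were not taken without single genes. The main tag cluster of a gene, the one with the most TPM over all libraries, lay within 100 nt of the start in 29 of 60 cytosolic and 26 of 42 mitochondrial genes, and 10 to 40 nt inside the gene in 17 and 8. It held over 50% of the TPM of the gene in 23 cytosolic genes (38.3%) and 26 mitochondrial genes (61.9%). Close positions that different libraries list apart can lower this share.

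**Figure D2:**
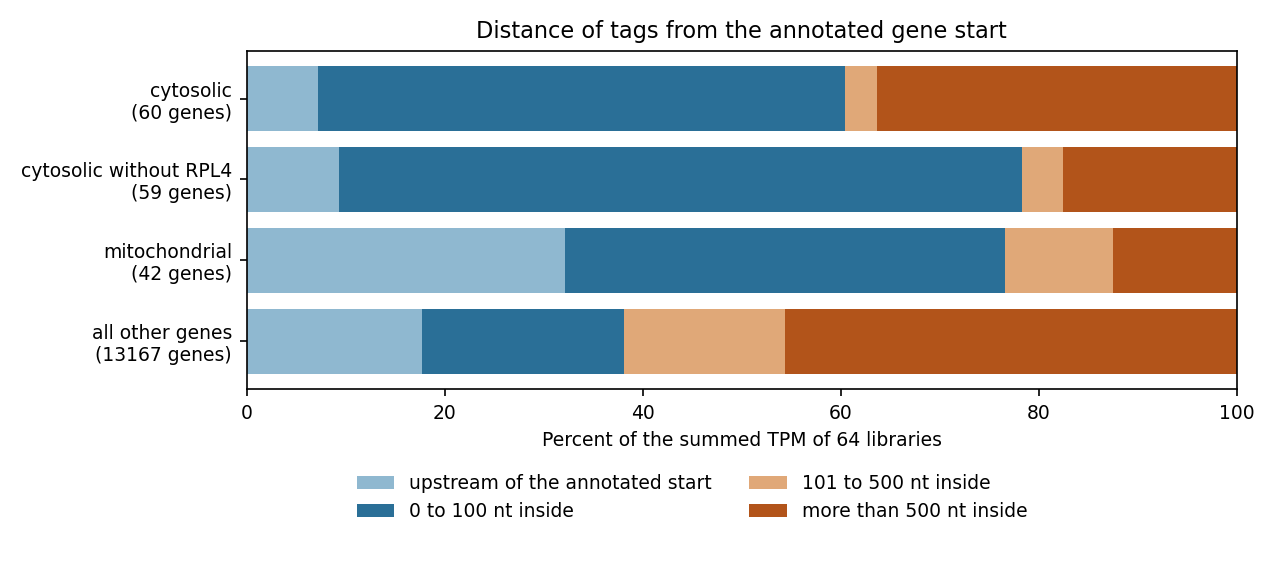
Percent of the summed TPM of 64 libraries by distance from the annotated gene start, for the 60 cytosolic genes, the same set without RPL4, the 42 mitochondrial genes and the 13167 other genes. The bin of 0 to 100 nt inside the gene is the largest one in the cytosolic set with RPL4 (53.2%) and without it (69.0%) and in the mitochondrial set (44.4%), and the bin beyond 500 nt is the largest in the other genes (45.6%).

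RPS23, a protein of the decoding centre (chromosome 6, 78448411 to 78451164, minus strand, MMUL 1.0, as are all positions here), had 92.6% of its TPM at a single position 31 nt inside the annotated start, listed in 53 libraries. RPS14 (chromosome 6, 146916390 to 146921764, minus strand) had 64.5% at 22 nt inside, in 17 libraries, and 18.6% at 51 nt, in 14 libraries. Neither of these RPS14 positions was listed in a CA1 library. In both genes 1 position near the 5′ end held most of the TPM summed over all libraries. MRPL11 (chromosome 14, 8013389 to 8017206, plus strand) was alike, with 70.4% at the annotated start itself in 48 libraries. MRPL46 (chromosome 7, 68075475 to 68083251, minus strand) had 70.9% at 24 nt inside, in 42 libraries.

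Some strong genes had their main position far inside the gene. The main tag cluster of RPL4 lay 3106 nt inside the gene (chromosome 7, 45033337 to 45038549, minus strand, a span of 5213 nt), held 97.3% of its TPM and was listed in 63 libraries, and only 0.0346% of its TPM lay within 500 nt of the start. The values of RPL4 are therefore values of that inner position. MRPL4 (chromosome 19, 10063214 to 10069750, plus strand) had 56.0% at 6024 nt inside its span of 6537 nt, in 58 libraries, and MRPS9 (chromosome 13, 104943751 to 104999899, plus strand) had 55.1% at 53436 nt inside, in 45 libraries. RPS21 is annotated over 196267 nt (chromosome 10, 2139064 to 2335330, minus strand), and its main tag cluster lay 97111 nt inside and held 14.8%. Whether tags inside genes come from capped ends was not tested.

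The signal of a single gene could also be spread. MRPS34 (chromosome 20, 1758336 to 1759248, minus strand) had 72 tag clusters over a span of 913 nt. Its 3 strongest lay 13 nt upstream of the start, at the start and 499 nt inside, and held 18.6%, 17.6% and 17.4% of its TPM in 13, 9 and 31 libraries. RPLP1 (chromosome 7, 48101022 to 48103464, plus strand) had 32.4% at 74 nt inside, 24.4% at 67 nt and 16.2% at 50 nt, in 18, 15 and 14 libraries. For MRPS21 (chromosome 1, 128668498 to 128681364, plus strand) 65.9% lay 447 nt upstream of the annotated start, in 43 libraries.

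Summed over its members, the cytosolic set exceeded the mitochondrial set in 61 of 64 libraries. The cytosolic sum was 10142 ± 4921 TPM and the mitochondrial sum 4382 ± 1301 TPM (SD, n = 64 libraries), and their ratio averaged 2.37 ± 1.04. The mitochondrial sum was higher in the PFC library of 20-yr-old males (4301 cytosolic and 6006 mitochondrial TPM), the PCC library of 10-yr-old males (5454 and 7008 TPM) and the CA1 library of 10-yr-old males (3787 and 4552 TPM). Without RPL4 the cytosolic sum was higher in 56 libraries. As a share of all listed TPM, the cytosolic set made up 1.80% and the mitochondrial set 0.778% on average.

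Across regions the cytosolic sum varied more than the mitochondrial sum. It was 11091.5 ± 5181 TPM in CB, 4414 ± 838 in CA1, 10994 ± 4817 in DG, 5722 ± 1781 in PFC, 10969.8 ± 3863 in PCC, 10804 ± 4249.7 in TC, 11370.1 ± 4122 in PC and 15770.5 ± 3625 in OC (SD, n = 8 libraries each). OC was highest and CA1 lowest, with every OC library (9079 to 19611) above every CA1 library (3725 to 6036). Without RPL4 the OC mean was 10179 TPM and that of PCC was 10417 TPM, so OC was no longer highest, while CA1 stayed lowest with 3708 TPM. The mitochondrial sum was 5112 ± 799.9 TPM in CB, 3134.5 ± 909 in CA1, 4108 ± 1324 in DG, 3799.9 ± 1208 in PFC, 4621.5 ± 1943 in PCC, 4508 ± 739 in TC, 4608 ± 1208 in PC and 5165 ± 1037 in OC. Its regions overlapped widely, as in OC (3980 to 6508.5) and CA1 (1431 to 4552). On the log2 scale the ratio of the sums averaged 1.60 in OC, 1.35 in DG, 1.27 in PCC, 1.27 in PC, 1.20 in TC, 1.01 in CB, 0.59 in PFC and 0.54 in CA1. Without RPL4 this order changed, to 1.19 in PCC, 1.13 in DG, 0.93 in OC, 0.90 in PC, 0.48 in TC, 0.47 in CB, 0.34 in PFC and 0.27 in CA1. Counting only tag clusters within 500 nt of the start, the CA1 ratio fell below 0, with a mean of -0.22. No p is given for these sums, which are descriptions of sets of genes.

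**Figure D3:**
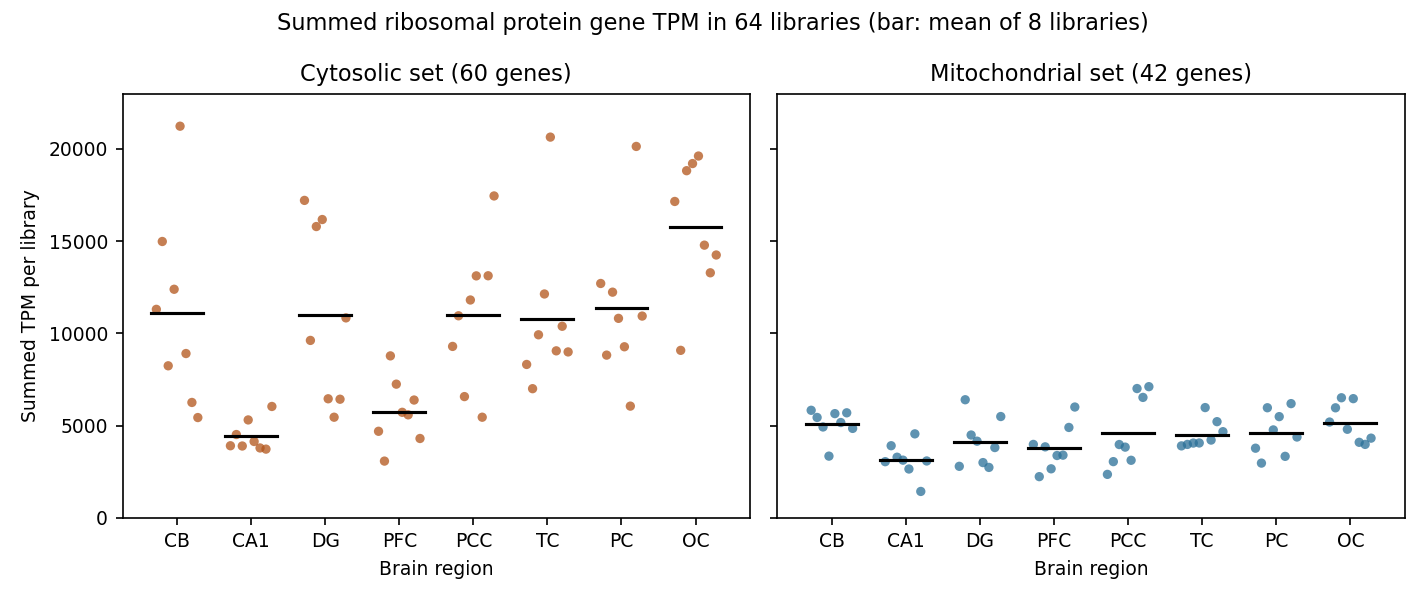
Summed TPM per library of the 60 cytosolic genes (left) and the 42 mitochondrial genes (right) by region, on the same axis, with 8 libraries per region and a bar at their mean. Cytosolic sums reach from 3075 to 21228 TPM and are lowest in CA1 and PFC, while mitochondrial sums stay between 1431 and 7110 TPM in every region.

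The 2 sums moved together only in part. Over the 64 libraries, which share animals within an animal group, the log2 sums had a Pearson r of 0.483, and of 0.226 once region means were removed. The number of members listed followed the number of genes listed in a library (r = 0.898 for the cytosolic and 0.915 for the mitochondrial set, against log2 genes listed). It ran from 13 to 46 cytosolic and from 4 to 33 mitochondrial members per library. The sums ran the other way (r = -0.566 and -0.434). The part of this relation in the results below was not tested, beyond the values given with the number of listed genes as a covariate.

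Members were tested on log2(TPM + 1) with limma where they had at least 1 TPM in at least 8 libraries, which 87 of the 102 members did (54 cytosolic, 33 mitochondrial), among 6106 genes in all. Differences below are on this scale, which understates changes of low genes, and a gene passed at an adjusted p under 0.05 over all 6106 genes.

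Across the 8 regions, 19 of the 87 members differed between regions (10 cytosolic and 9 mitochondrial, 21.8%), where 26% of all tested genes did. RPL4 had the smallest adjusted p (limma F = 8.43, adjusted p = 4.21e-05). Its lowest, median and highest values were 1243, 2986 and 7512 TPM in CB, 14.4, 640.2 and 1467 in CA1, 733.7, 1164 and 1875.5 in DG, 15.9, 515 and 2915.5 in PFC, 1.39, 483 and 1314 in PCC, 2652, 3856 and 5841 in TC, 635, 1934 and 5777 in PC, and 3046, 5019 and 10770 in OC. Every OC and TC library was above every CA1, DG and PCC library. RPL4 did not pass with tag clusters within 500 nt only (F = 2.02, adjusted p = 0.144), since its main position lies outside.

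RPL24, a large-subunit protein that reaches over to the small subunit (chromosome 2, 21870467 to 21875827, minus strand), also differed between regions (F = 8.41, adjusted p = 4.35e-05 by limma). It was listed in all 8 libraries of OC (120.1 to 634 TPM, median 433), CA1 (150.5 to 375.5, median 301) and PC (28.3 to 881, median 209), but in only 3 of 8 in DG and 2 of 8 in PCC, where the median was 0. RPL22, an RNA-binding large-subunit protein (F = 3.79), had its highest median in OC (249.2 TPM, 156.3 to 381) and its lowest in PFC (36.3 TPM, 0 to 123.7). RPL22 did not pass with tag clusters within 500 nt only (limma F = 1.27, adjusted p = 0.382). RPSA, RPL31, RPLP1, RPL6, RPS27 and RPS25 passed as well, with F from 2.93 to 5.25. None of them passed with the number of listed genes as a covariate (limma adjusted p from 0.0773 for RPL31 to 0.599 for RPS27). In that fit 409 of all 6106 genes passed. Of the 8 fits that left out 1 animal group, RPS25 passed in 2, RPS27 and RPL6 in 3, RPL31 in 5, RPLP1 in 6 and RPSA in 8.

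Among mitochondrial members PCC stood lowest in several genes that passed. MRPL28 (F = 5.34) was listed in 1 of 8 PCC libraries and had a median of 92.4 TPM in OC. MRPS18C, 1 of the paralogues of the S18 family (F = 3.85), was listed in 2 of 8 PCC libraries, against medians of 60.1 to 198 TPM in the other 7 regions. MRPL46 (F = 4.53) had a median of 8.93 TPM in PCC (0 to 307) and 598 TPM in OC (225 to 1427). PCC libraries also listed the fewest genes on average (1258, range 617 to 2158). With the number of listed genes as a covariate, none of these 3 genes passed (limma adjusted p = 0.156 for MRPL28, 0.0916 for MRPS18C and 0.0639 for MRPL46). MRPL9 (F = 4.80) stood apart in TC, with 7 of 8 libraries and a median of 110.9 TPM, against medians of 0 to 1.89 TPM in the other 7 regions. Its main tag cluster lay 2624 nt inside the gene. With tag clusters within 500 nt only, MRPL9 did not pass (limma F = 2.11, adjusted p = 0.126). The remaining genes that passed were MRPS9 (F = 5.07), MRPL51, MRPS18B, MRPL43 and MRPL37, with F from 3.13 to 3.84 for the last 4. MRPS9 did not pass within 500 nt only (limma F = 1.97, adjusted p = 0.152). None of these genes passed with the number of listed genes as a covariate (limma adjusted p from 0.0591 for MRPS18B to 0.860 for MRPL51). Of the 8 fits that left out 1 animal group, MRPL37 passed in 3, MRPS18B and MRPL43 in 4, MRPL51 in 5 and MRPS18C in 6. MRPL28, MRPL46, MRPL9 and MRPS9 passed in all 8.

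**Figure D4:**
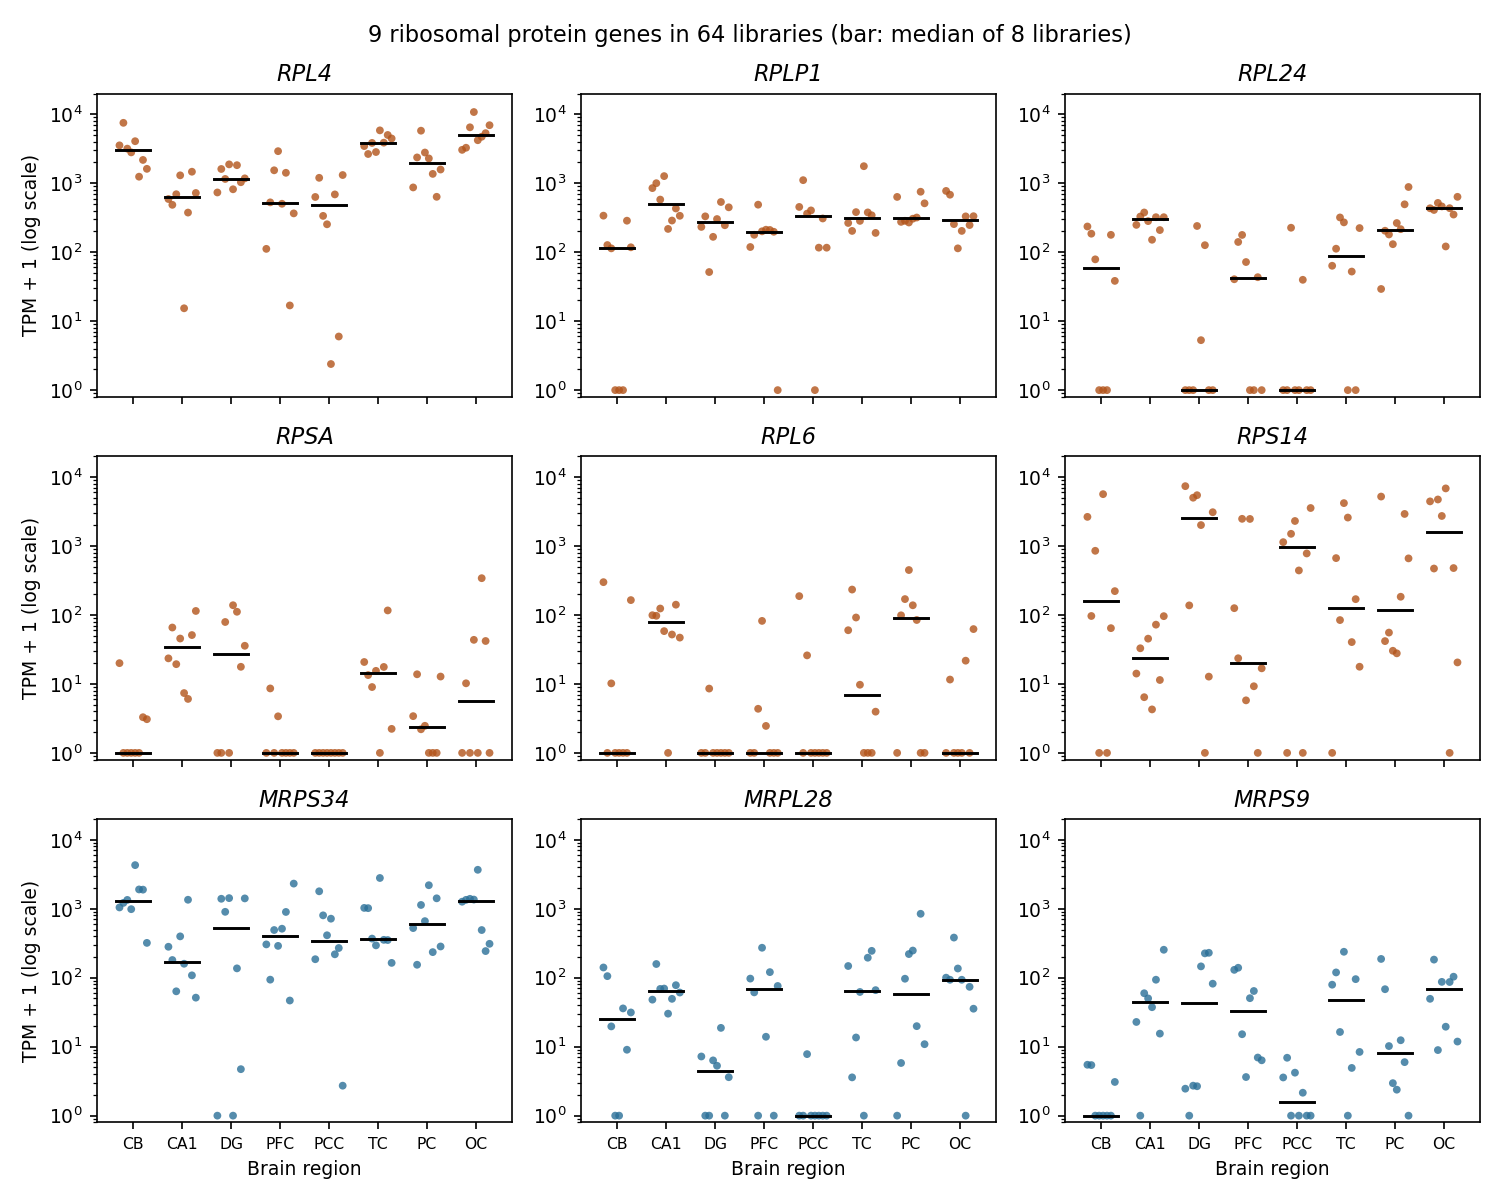
TPM + 1 (log scale) of 9 ribosomal protein genes by region, with 8 libraries per region and a bar at their median. Points at 1 are libraries in which the gene was not listed. RPL4 is high in OC and TC, RPL24 and RPL6 are listed in most CA1 libraries but in 3 and 1 of 8 DG libraries, MRPS9 does not exceed 4.47 TPM in CB, and RPS14 spreads from 0 to 7371 TPM within DG.

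In CB, 2 members were lower than in the other 7 regions and none was higher, in a comparison where 2.23% of all genes passed (1.34% lower and 0.884% higher). RPLP1, a stalk protein, had 0, 115 and 338 TPM (lowest, median and highest of 8) in CB and 0, 303 and 1765 TPM in the 56 other libraries, a log2 difference of -3.39 (SE 0.79, limma adjusted p = 0.00696). The ranges overlapped, and CB was below the mean of the other regions in 8 of 8 animal groups. RPLP1 was not listed in 3 of 8 CB libraries (4-yr-old males and both 10-yr-old groups), and no longer passed without the 4-yr-old males (adjusted p = 0.0993) or without the 10-yr-old males (adjusted p = 0.103).

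MRPS9, a small-subunit protein of the mitochondrial ribosome, had 0, 0 and 4.47 TPM in CB and 0, 14.3 and 253 TPM in the other libraries, a log2 difference of -3.20 (SE 0.85, limma adjusted p = 0.0272). CB was lower in 8 of 8 animal groups, although the ranges overlapped. It did not pass without the 4-yr-old males, the 4-yr-old females, the 10-yr-old males, the 10-yr-old females or the 20-yr-old females (adjusted p = 0.0698, 0.0778, 0.102, 0.0518 and 0.0741). With tag clusters within 500 nt only, adjusted p was 0.563. RPLP2, the partner of RPLP1 in the stalk, had a difference of -2.27 (SE 0.95, adjusted p = 0.265), and MRPS34 had 2.02 (SE 0.87, adjusted p = 0.287), neither of which passed.

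The sets as a whole did not stand out in CB. The median difference was -0.38 for cytosolic members, -0.21 for mitochondrial members and -0.43 for all genes, and 16 of 54, 13 of 33 and 2113 of 6106 were positive. With the number of listed genes as a covariate the mitochondrial median became 0.22, the cytosolic one -0.28 and that of all genes -0.11.

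In the hippocampus 1 member was higher than in the neocortex, where 8.19% of all genes passed (7.98% higher and 0.213% lower). RPSA, a small-subunit protein also known as the laminin receptor (chromosome 2, 97127533 to 97133529, minus strand), had 0, 28.6 and 137 TPM in the 16 libraries of the hippocampus and 0, 0 and 340 TPM in the 40 libraries of the neocortex, a log2 difference of 2.58 (SE 0.62, limma adjusted p = 0.00552). It was listed in 13 of 16 libraries of the hippocampus (8 of 8 in CA1, 5 of 8 in DG) and in 18 of 40 of the neocortex (0 of 8 in PCC). The ranges overlapped, since the highest value was that of OC in 10-yr-old males, and the hippocampus was higher in 7 of 8 animal groups. RPSA passed without each animal group in turn but not with the number of listed genes as a covariate (difference 1.78, adjusted p = 0.178). In that fit, where 123 of all 6106 genes passed, MRPS18B passed instead, lower in the hippocampus (difference -2.98, limma adjusted p = 0.0324).

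Medians were 0.51 for cytosolic members, 0.14 for mitochondrial members and 0.55 for all genes. The mitochondrial median turned to -0.37 with the covariate and to -0.09 after quantile normalization. MRPS34 had medians of 169 TPM in the hippocampus and 490 TPM in the neocortex and a difference of -1.95 (SE 0.68, limma adjusted p = 0.0609), which did not pass. It passed without the 1-yr-old males (adjusted p = 0.0487) and without the 20-yr-old males (adjusted p = 0.0188). Leaving out 1 group also let RPL30 pass without the 1-yr-old females (adjusted p = 0.0405), RPS27A without the 1-yr-old males (0.0170) and RPS25 without the 4-yr-old females (0.0490), each higher in the hippocampus.

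CA1 and DG gave the largest number of differences. Here 9 of 87 members (10.3%) were higher in CA1 and none passed in the other direction, where 19.4% of all genes passed (18.5% higher and 0.852% lower). The share of members was thus below that of all genes. The median difference was 0.76 for cytosolic members, 0.80 for mitochondrial members and 1.37 for all genes, and 37 of 54, 23 of 33 and 5060 of 6106 were positive.

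RPL24 had 150.5, 301 and 375.5 TPM in CA1 and 0, 0 and 239 TPM in DG, a log2 difference of 5.92 (SE 1.31, limma adjusted p = 0.00117). In DG it was listed in the 4-yr-old males, the 10-yr-old females and the 10-yr-old males only (239, 4.30 and 125.3 TPM). CA1 was higher in 8 of 8 animal groups and the ranges overlapped through that 1 library of 239 TPM. RPL6, a large-subunit protein (chromosome 11, 113333698 to 113338290, minus strand), had 0, 76.8 and 139.9 TPM in CA1 and was listed in a single DG library at 7.56 TPM, a difference of 5.17 (SE 1.33, adjusted p = 0.00528).

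RPS27, a small-subunit protein with a zinc finger (unplaced scaffold 1099213980293, 451 to 915, plus strand), had a median of 164 TPM in CA1 (listed in 6 of 8) and was listed in 1 DG library, at 745 TPM in the 4-yr-old females. Its difference was 4.30 (SE 1.51, limma adjusted p = 0.0384). RPL31, a protein near the exit of the tunnel (chromosome 13, 100934553 to 100938218, plus strand), had 7.05, 30.4 and 69.6 TPM in CA1 and 0, 2.73 and 54.4 TPM in DG, a difference of 2.72 (SE 0.91, adjusted p = 0.0302). RPS29, another small zinc-binding protein (chromosome 7, 112630998 to 112640413, minus strand), was listed in 5 of 8 CA1 libraries (1.48, 11.7, 28.7, 36.7 and 107.8 TPM) and at 0 in all DG libraries (adjusted p = 0.0301), so no fold is given.

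Of the mitochondrial genes, MRPL28 (chromosome 20, 341638 to 357443, minus strand) was the only one of the 9 whose ranges did not overlap. How often the ranges of genes at large did not overlap was not counted, so this does not set MRPL28 apart from them. MRPL28 had 47.1, 157.0, 67.8, 68.6, 29.1, 48.4, 76.9 and 59.99 TPM in CA1 (1F, 1M, 4F, 4M, 10F, 10M, 20F and 20M, for age in yr and sex). In DG it had 6.21, 0, 0, 5.33, 4.29, 17.7, 0 and 2.61 TPM, a difference of 4.23 (SE 1.24, limma adjusted p = 0.0140). MRPL51 (chromosome 11, 6644810 to 6645795, minus strand) had 20.7, 96.2 and 209.5 TPM in CA1 and 0, 5.01 and 92.2 TPM in DG (difference 3.82, SE 1.24, adjusted p = 0.0258). Both genes were higher in CA1 in 8 of 8 animal groups, and both encode large-subunit proteins.

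MRPL49 (chromosome 14, 9310486 to 9316305, minus strand) had 1.94, 97.4 and 220.3 TPM in CA1 and 0, 0 and 117 TPM in DG (difference 3.72, SE 1.36, limma adjusted p = 0.0463). MRPL37 (chromosome 1, 57077830 to 57104231, plus strand) had 12, 42.8 and 57.0 TPM in CA1 and 0, 0 and 198 TPM in DG (difference 3, SE 1.12, adjusted p = 0.0496). Here 2 DG libraries of the 10-yr-old animals (198 and 131 TPM) were above every CA1 library.

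These calls differed in how far they rested on single animal groups. RPL24, RPL6 and MRPL28 passed without each of the 8 groups in turn. The other 6 were lost without at least 4 of the groups each, so that 3 members passed without the 20-yr-old females or the 20-yr-old males, 5 to 8 without most others, and 13 without the 10-yr-old males. Over all 6106 genes these fits gave 747 (without the 4-yr-old males) to 1307 (without the 10-yr-old males), against 1182 in the main fit. None of the 9 passed with the number of listed genes as a covariate, where the differences of RPL24, RPL6 and MRPL28 were 3.35, 2.44 and 2.78 (limma adjusted p = 0.230, 0.430 and 0.338). In that fit 187 of all 6106 genes passed, so the loss was not particular to members. The covariate also turned the medians to -0.47 (cytosolic), -0.19 (mitochondrial) and 0.31 (all genes), and quantile normalization turned them to -0.50, 0.13 and 0.12.

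Other measures that moved with this comparison are the number of listed genes, given above, and the markers of oligodendrocytes (5 of 6 markers in the table), whose sum was 4978 to 8185 TPM in CA1 and 736 to 4047 TPM in DG. Astrocyte markers (6 of 6) summed to medians of 734 and 780 TPM. The part of oligodendrocytes in the results was not tested.

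Members with higher values in DG did not pass. RPS14 had 3.27, 22.5 and 95.1 TPM in CA1 and 0, 2549 and 7371 TPM in DG (difference -4.43, SE 1.78, adjusted p = 0.0684 by limma). RPS23 had 0, 117 and 800.2 TPM in CA1 and 91.3, 782 and 1790 TPM in DG (difference -3.07, SE 1.32, adjusted p = 0.0899). Both ranges overlapped. RPL18, a large-subunit protein at a low level, had 0, 0 and 3 TPM in CA1 and 0, 13.2 and 23.9 TPM in DG (difference -2.64, SE 1.00, adjusted p = 0.0525), with overlap. It passed, lower in CA1, without the 10-yr-old females (adjusted p = 0.0252) or the 10-yr-old males (0.0382), without the animal-group term (0.0485), with a pseudocount of 0.25 (0.0389), with tag clusters of at least 2 TPM (0.0482), after rescaling (0.0408) and without the libraries listing under 1000 genes (0.0398). RPS14 passed without the 10-yr-old males (adjusted p = 0.0183), and RPS23 passed without the 4-yr-old females (adjusted p = 0.0441).

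**Figure D5:**
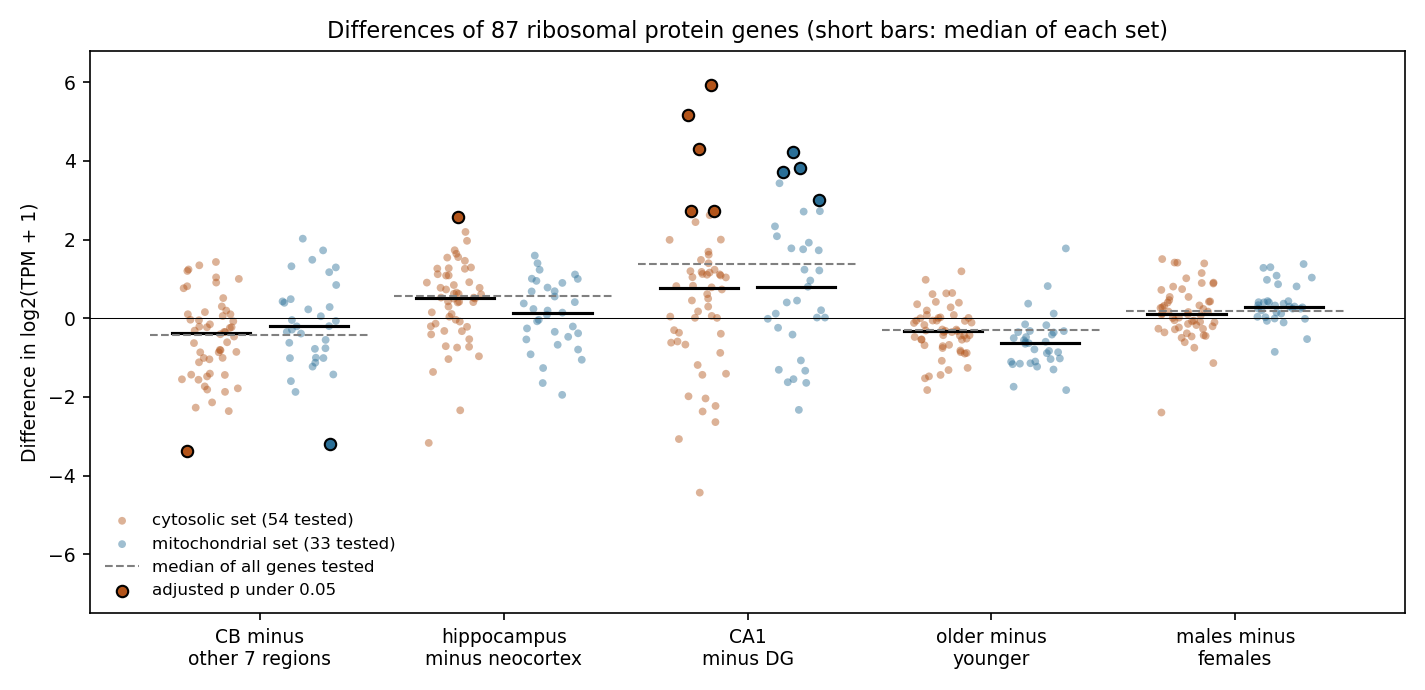
Difference in log2(TPM + 1) of the 87 tested members for 5 comparisons, cytosolic genes in orange and mitochondrial genes in blue, with a short bar at the median of each set and a dashed line at the median of all 6106 genes tested. Larger points with a black outline passed at an adjusted p under 0.05, 2 of them in CB, 1 in the hippocampus, 9 in CA1 against DG and 0 for age and sex.

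Other genes of the translation machinery were followed as 3 lists. Of 38 tested cytosolic translation factors and other TOP mRNAs, 4 were higher in CA1 than in DG and none lower (median 1.32), namely EEF1A1, which delivers aminoacyl-tRNA (difference 4.57, SE 1.07), EIF5, a factor in start-codon selection (3.86, SE 0.86), PABPC1, the poly(A)-binding protein (2.63, SE 0.65), and EIF3F, a subunit of initiation factor eIF3 (2.44, SE 0.82). Of 11 tested mitochondrial translation genes without the MRP prefix, 2 were higher (median 1.57), DAP3, a protein of the small mitochondrial subunit (3.54, SE 0.98), and HARS2, a mitochondrial tRNA synthetase (2.55, SE 0.49). Of 21 tested genes of ribosome assembly 4 were higher (median 1.43), the nucleolar proteins NCL (4.43, SE 1.50), NOP58 (4.26, SE 1.23), FBL (3.06, SE 1.06) and NOP2 (2.95, SE 1.10). EIF5, PABPC1, EIF3F and HARS2 were at 0 in all DG libraries, and their differences depend on the added 1 TPM. They were listed in 10, 12, 14 and 8 libraries in all, of which 6, 5, 7 and 6 were of CA1. Without the CA1 libraries none of these 4 genes would have entered the tests, so a listing in CA1 was part of their selection.

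The share that passed was 10.5%, 18.2% and 19.0% in these lists, against 10.3% of members and 19.4% of all genes. Between hippocampus and neocortex 1, 1 and 0 genes of the lists passed. PABPC4 was higher in the hippocampus (2.91, SE 0.94, limma adjusted p = 0.0410). HARS2 passed as well (1.23, SE 0.29, adjusted p = 0.00439), but it was listed in 6 of 8 CA1 libraries and 0 of 8 DG libraries. Its difference is therefore one of CA1 and not of the hippocampus as a whole. Between any regions 6 genes of the first list and 3 of each of the others passed, with F = 5.76 for EIF3K, 6.55 for HARS2 and 5.01 for FBL as the largest of each. No gene of the 3 lists passed in CB, for age or for sex.

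For age, 0 of 87 members passed between older (10 and 20 yr) and younger animals (1 and 4 yr), where 0% of the 6106 genes passed with limma on the means of the 8 animal groups. At an unadjusted p under 0.05 there were 9 members (10.3%, 4 cytosolic and 5 mitochondrial), against 549 of all genes (8.99%). The smallest p was that of MRPL21, a large-subunit protein, whose animal-group means were 0.277, 33.5, 38.2 and 73.2 TPM in older and 57.6, 38.7, 18.6 and 66.1 TPM in younger animals, a log2 difference of -1.83 (SE 0.48, adjusted p = 0.355). Older and younger means overlapped. MRPS23 had -1.74 (SE 0.50, adjusted p = 0.378), RPL6 had -1.83 (SE 0.56, adjusted p = 0.394) and MRPL36 had 1.77 (SE 0.53, adjusted p = 0.389). RPL6 had 17.3, 19.4, 17.5 and 34.2 TPM in older and 80.2, 54.6, 53.5 and 74.3 TPM in younger animals, without overlap, in a comparison with no called gene.

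The mitochondrial set gave different signs by measure. Its median log2 difference between older and younger animals was -0.64 (4 of 33 positive), against -0.32 for cytosolic members and -0.30 for all genes. Its summed TPM was 4464, 4312, 4718 and 4988 in the older and 3858, 4242.5, 4631 and 3842 in the younger animal groups, higher on average and with overlap. Older libraries listed 2472 genes on average and younger ones 3015, and with the number of listed genes as a covariate the medians became 0.18 (mitochondrial), 0.003 (cytosolic) and 0.01 (all genes). Taken by age (1, 4, 10 and 20 yr, 2 animal groups each), the mitochondrial sum averaged 4050.5, 4237, 4388 and 4853 TPM and the cytosolic sum 9537, 11207, 9953 and 9871 TPM. The mitochondrial sums of neighbouring ages overlapped from 1 to 4 yr and from 4 to 10 yr, but not from 10 to 20 yr.

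Within regions, 1 of the 16 set sums did not overlap between older and younger animals, the mitochondrial sum of TC, with 4215 to 5976 TPM in older and 3900 to 4058 TPM in younger animals. The cytosolic sum of DG was 5454 to 10838 TPM in older and 9617 to 17206 TPM in younger animals and overlapped. These are 4 libraries on each side and were not tested.

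Whether age changes differed between regions was asked with an interaction term, and 0 members passed (0% of all genes, 2 members and 454 genes at an unadjusted p under 0.05). MRPS9 had the smallest adjusted p of the members (0.0887 by limma). In DG it had 145, 225, 229 and 80.9 TPM in older animals and 1.46, 0, 1.72 and 1.67 TPM in younger animals, without overlap, whereas in CB it stayed at or below 4.47 TPM in all animals. It passed only without the filter on low values (adjusted p = 0.0280). For any age, 0 members passed and 6 had an unadjusted p under 0.05 (0% and 373 of all genes).

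Between males and females 0 members passed (0% of all genes), and 7 cytosolic and 0 mitochondrial members had an unadjusted p under 0.05, against 321 of all genes (5.26%). RPL5 had the smallest, with animal-group means of 83.0, 20.3, 117 and 9.59 TPM in males and 20.7, 5.22, 2.27 and 4.22 TPM in females at 1, 4, 10 and 20 yr (log2 difference 1.41, SE 0.43, limma adjusted p = 0.924). Males were higher at every age, but their range overlapped that of females. The medians were 0.11 for cytosolic members, 0.30 for mitochondrial members and 0.19 for all genes, and the cytosolic one turned to -0.12 with the covariate for listed genes.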

How the data were processed

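CAGE-seq tags of 64 libraries of macaque brain were measured. The authors filtered reads with FASTX-Toolkit, aligned them with TopHat2 to MMUL 1.0, kept uniquely mapped reads, took 5′ ends as tag starts and clustered them library by library. The deposited TPM values are RPM, tags scaled to the tag total of a library, without length correction. Low values were whole multiples of 1 step in at least 99.8% (tolerance 0.015 TPM), but each list begins at several tags, so counts were not rebuilt.

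TPM were summed per gene. The 6106 genes that reached 1 TPM in 8 or more libraries entered limma 3.58.1 (R 4.3.3) as log2(TPM + 1) (moderated t and F tests, two-sided, Benjamini-Hochberg over all genes). Region fits had region and animal group as terms, since the same animals gave all regions. Same-group libraries of different regions had a mean correlation of deviations of 0.0113 (224 pairs), against -0.0016 for other pairs (1568). Ages and sexes were compared on 8 animal-group means. The p-values measure only the spread between these pooled samples. How the tests behave for genes that many libraries did not list was not tested. Alternatives were a pseudocount of 0.25, a filter of 16 libraries, no filter, quantile normalization, rescaling to the listed sum, tag clusters of at least 2 TPM or within 500 nt of the start, a covariate for listed genes, no animal-group term, neocortical means, and leaving out the top member, the PFC library of 20-yr-old females or each animal group.

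Members, gene lists and tests were chosen with earlier results of these data known. Named are all members that passed (at most 10 in each direction), the 10 members of each set with the highest mean, those listed in every library and up to 4 genes per translation list with the smallest p. RPS2 and other genes outside this rule were chosen after their values were seen. Promoter sequences were not analysed here, and some members that the rule names are not reported here. Tables and figures were made with pandas 2.3.3, NumPy 2.4.6, Matplotlib 3.10.9 and SciPy 1.17.1 under Python 3.11.15.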

Additional observations from a re-analysis of the deposited data

Results flagged for a closer look

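In 88 groups of 8 libraries (the set sums, their log2 ratio and the 8 members listed in at least 60 libraries, in each region), 18 held a library whose gap to the nearest other exceeded Dixon's 95% critical value as a share of the range. That critical value holds for independent groups of normally distributed values. These groups share libraries, the log2 ratio is made from the set sums, and some values are of genes not listed. The 18 of 88 groups are therefore a description, and whether they are more than usual was not tested. The 18 values came from 13 libraries, and 13 of them from animals of 10 or 20 yr that were female. Of the 13 libraries, 4 list fewer than 1000 genes.

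The cytosolic sum was 20636.3 TPM in TC of 10-yr-old females (other libraries 7000.5 to 12133.3) and 20130.5 TPM in PC of 20-yr-old females (others 6054.8 to 12702.8). The mitochondrial sum was 3344.6 TPM in CB of 4-yr-old males (others 4847.4 to 5829.2), and the log2 ratio of the sums was 0.61 in OC of 1-yr-old males (others 1.53 to 2.00).

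Single genes were low in 14 cases, given as log2(TPM + 1). RPL4 was at 3.94 in CA1 of 10-yr-old females (14.4 TPM, others 374.4 to 1467.1). RPS23 was at 0 in CB of 10-yr-old females and in OC of 4-yr-old females, and at 1.15 in PFC of 10-yr-old females. RPLP2 was at 0 in PC of 10-yr-old females, and RPL13A, a large-subunit protein, was at 0 in CB of 10-yr-old females and in PC of 20-yr-old females.

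Of the mitochondrial genes, MRPS34 was at 1.44 in PCC of 20-yr-old males (1.72 TPM, others 184.5 to 1790.2). MRPS21 was low in CA1, PCC and PC of 20-yr-old females (7.27, 3.71 and 4.66) and in TC of 10-yr-old females (3.84). MRPL4 was at 7.92 in CB of 1-yr-old males, and MRPS15 was at 0 in TC of 10-yr-old females.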

How the results depend on the processing

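With the number of listed genes as a covariate, 1 member passed in CB and 1 in the hippocampus (MRPS18B, lower, in place of RPSA). In that fit 0 members passed in CA1 against DG and 6 between any regions. Of all 6106 genes, 153, 123, 187 and 409 passed there, against 136, 500, 1182 and 1590 in the main fit. Quantile normalization gave 3 members in CA1 against DG (RPS14 among them, lower) and 10 between any regions, where 276 and 649 of all genes passed. In CB 1 member passed with tag clusters of at least 2 TPM or within 500 nt, where 130 of 5694 and 45 of 3306 genes passed. In the hippocampus 2 passed without a filter, 3 with a pseudocount of 0.25 or after rescaling, 5 within 500 nt, and 2 without the libraries listing under 1000 genes, an alternative chosen after seeing the data. Over all genes these fits gave 755 of 13269, 594 and 625 of 6106, 380 of 3306 and 331 of 6106. Without a filter 1 member (MRPS9) passed for region by age, as did 30 of 13269 genes in all. Leaving out each animal group gave 0 to 2 members in CB, 1 to 3 in the hippocampus, 3 to 13 in CA1 against DG and 12 to 18 between any regions. Of all 6106 genes, 91 to 137, 243 to 514, 747 to 1307 and 1014 to 1415 passed in the same fits. Without the block for animal group, which pairs libraries of the same animals, 2, 1, 7 and 19 members passed in these 4 comparisons, where MRPL37, MRPL49 and RPL31 were lost and RPL18 was gained in CA1 against DG. Without that block 119, 508, 1146 and 1530 of all genes passed. Leaving out 1 animal group moved the mitochondrial median between -0.67 and 0.04 in CB and between -0.18 and 0.25 in the hippocampus. After rescaling to the listed sum, the cytosolic sums were 17916.7 (CB), 8891 (CA1), 20250.6 (DG), 9473.2 (PFC), 18308.3 (PCC), 19731.2 (TC), 20936.4 (PC) and 28671.3 (OC), and the mitochondrial sums 8242.9, 6258.2, 7690.5, 6276.9, 7781.1, 8188.5, 8481.7 and 9335.3 in the same order. Within 500 nt the cytosolic sum was 2490.3 in CA1, 3716.3 in PFC, 5894.5 in TC and 8431.3 in OC, and the log2 ratio was -0.22 in CA1, where it changed sign, 0.42 in TC, 0.78 in PC and 0.87 in OC. Without RPL4 the cytosolic sum of OC was 10179, and without MRPS34 the mitochondrial sum was 3487.6 in CB, 3711.8 in TC and 3905.7 in OC. Without both genes the log2 ratio in TC was 0.77. Apart from what each alternative leaves out, the cause was not tested. Values near 1 TPM rest on few tags, and genes not listed may lie below that limit.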
